A study of Mus musculus with 4 samples.

Results

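The endothelial and angiogenesis genes are 48 genes named by symbol, of which 47 are among the 12408 genes listed for every heart and 1, the apelin ligand Apln, is not listed. The list uses symbols and no threshold on measured values. RNA-seq was made from 4 hearts of C57BL/6 mice aged 3 months, with 1 mouse and 1 library in each group. All 4 mice carried floxed copies of WW45, the Hippo pathway scaffold listed as Sav1. The CT mice (flox/flox) had no Cre, and the cKO mice also carried alpha-MHC-CRE, a Cre under the promoter of the alpha myosin heavy chain gene of cardiomyocytes, so the vessel cells were not the cells meant to lose the gene. In each genotype 1 mouse was at baseline and 1 had 4 weeks of transverse aortic constriction (TAC), a band on the aorta that raises the pressure against which the heart pumps. Neither a sham-operated group nor mice with Cre and no floxed gene were among the groups.

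Blood vessels grow and are kept by signals between neighbouring cells. Cardiomyocytes and mural cells release vascular endothelial growth factors (VEGF) and angiopoietin-1, endothelial cells bear the VEGF, Tie and apelin receptors, and the Notch pathway sets which endothelial cells sprout and which become arterial. Prolyl hydroxylases mark the hypoxia-inducible factors HIF-1alpha and HIF-2alpha for destruction when oxygen is plentiful, and these factors switch on Vegfa when it is not. In a pressure-loaded heart the capillary bed has to keep up with the growing muscle.

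The sequences that follow belong to the members on which the results turn and come from RefSeq (GRCm38.p6, the coordinates of mm10). Promoters were held for 26 of the 48 genes, 34 promoters in all. Each is printed 5′ to 3′ on the strand of its gene, up to the first annotated transcribed base, with motif matches in capitals. Clec14a is shown because it is the member called for TAC, and the VEGF receptor genes Kdr and Flt1 because the ratio of their reads differed between hearts.
Clec14a, chr12:58269291-58269508, minus strand: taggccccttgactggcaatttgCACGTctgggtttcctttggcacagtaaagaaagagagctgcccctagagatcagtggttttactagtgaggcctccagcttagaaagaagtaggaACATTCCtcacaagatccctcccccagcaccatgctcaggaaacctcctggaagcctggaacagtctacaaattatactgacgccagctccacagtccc
Kdr, chr5:75978459-75978705, minus strand: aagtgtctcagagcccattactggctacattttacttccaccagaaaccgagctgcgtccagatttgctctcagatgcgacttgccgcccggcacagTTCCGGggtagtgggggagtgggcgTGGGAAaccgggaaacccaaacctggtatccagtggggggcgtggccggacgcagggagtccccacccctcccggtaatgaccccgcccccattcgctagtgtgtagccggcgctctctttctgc
Flt1, chr5:147726012-147726261, minus strand: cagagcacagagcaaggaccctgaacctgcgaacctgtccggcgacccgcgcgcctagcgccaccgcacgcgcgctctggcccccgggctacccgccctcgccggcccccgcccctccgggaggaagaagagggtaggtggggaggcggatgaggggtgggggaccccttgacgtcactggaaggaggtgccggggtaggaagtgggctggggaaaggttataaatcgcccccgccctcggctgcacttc

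The capitals in the Clec14a promoter mark CACGT, the other strand of the hypoxia response core ACGTG, from base 24 of the printed stretch, and ACATTCC, the core bound by TEAD factors, the partners of the Hippo effector YAP, from base 120. In the Kdr promoter they mark the ETS core TTCCGG from base 98 and the RBPJ core TGGGAA of Notch signalling from base 123. The printed stretch ends 32 bases before the RefSeq start of Clec14a and 3 bases before that of Kdr, where an annotated transcript begins earlier. The Flt1 window held none of the 5 motifs searched, the last being the SOX core ATTGTT. Each motif was searched on both strands in the 300 bases from 250 before to 50 after the start. The hypoxia core was in 6 of the 34 member promoters (17.6%) and in 19.6% of all 32851 promoters, and the TEAD core was in 1 of 34 (2.94%) and in 3.85% of all. The ETS core was in 2 of 34 (5.88%, against 14.9%), the SOX core in 3 (8.82%, against 10.7%) and the RBPJ core in 8 (23.5%, against 25.6%). These are letter matches, and binding was not measured.

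Egfl7, a member that encodes a protein secreted by endothelial cells, also carries an endothelial microRNA within the gene. It is shown because the deposited gene value cannot be split between host and microRNA. Its mature sequence has the seed, bases 2 to 8, in capitals.
mmu-miR-126a-3p, chr2:26591402-26591423, plus strand: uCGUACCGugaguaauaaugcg

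Values are reads scaled to library size as CPM, computed back from the deposited log2 CPM, with 95% counting intervals in brackets. Where 4 values of a gene or list follow each other, the first is the CT heart at baseline, then come the CT heart with TAC, the cKO heart at baseline and the cKO heart with TAC. The libraries held between 1587840 and 2796547 recovered reads, which is shallow, and the median member had between 63 and 109.75 reads, against 30 to 48 for the median listed gene. In all, 42 of the 47 members had at least 10 reads in every library. A gene was taken as higher or lower in a pair of libraries when its values differed by 2-fold or more with 1 outside the 95% interval of the ratio. With 1 library per group this describes 2 hearts and is not a test of the condition. The intervals cover counting error only and hold no spread between mice. Reads copied by PCR are not separate molecules, so the intervals may be too narrow even for counting error. The log2 ratios carry an added read and so understate the difference of genes with few reads. A model over all 4 libraries (limma, additive for genotype and TAC, Benjamini-Hochberg over 12408 genes, two-sided) sets 2 mice against 2, and no spread among mice of one group was measured. In whole heart tissue, fewer cells of a type and less RNA per cell cannot be told apart. Sav1 was 49.3, 35.4, 39.8 and 46.2 CPM, so the library labelled cKO TAC was not lower than its control, and that bears on every genotype comparison. Acta2, a smooth muscle actin gene chosen after its values were seen, was 202, 161, 594 and 490 CPM and ran with the genotype labels (limma 1.58, SE 0.17, adjusted p = 0.00913, between 0.000139 and 0.999 over 7 alternatives, 5 of which called it). Acta2 is 1 of 10 mural cell markers, of which 5 were higher and 5 lower in cKO at baseline (median log2 ratio 0.01). Tagln, another of the 10, was at least 2-fold lower there. Under TAC 6 were higher in cKO and 4 lower (median 0.05). Whether the labels of the TAC libraries were exchanged, which would turn the sign of their genotype ratios, was not tested. By its promoter the Cre leaves Sav1 in other cells, and whether the reads lie outside the deleted part is not known here.

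The summed signal of the 47 members was 4530, 3781, 3703 and 3995 CPM, a range of 1.22-fold. Summed within each role, the range lay between 1.30-fold for the surface, junction and caveolar genes and 1.81-fold for the adhesion genes. A separate list of 36 further endothelial genes spanned 1.37-fold. In such sums the genes with most reads weigh most, so the range of the sum does not describe single genes. Pecam1, the platelet endothelial adhesion molecule used to mark vessels, was 178 CPM (162 to 195), 160 (143 to 179), 170 (151 to 191) and 192 (173 to 214). Its libraries lay within 1.20-fold of each other. Emcn, a sialomucin of capillaries and veins, was 18.3, 33.4, 24.5 and 24.2 CPM, with CT TAC the highest. Both defining markers were thus present in every library. Summed markers of these other cell types spanned from 1.33-fold for mural to 3.04-fold for red cells: fibroblast markers (10 genes) were 3870, 6872, 5091 and 8308 CPM, macrophage markers (10) 445, 643, 1017 and 888, mural cell markers (10) 3286, 3266, 4258 and 4339, and cardiomyocyte markers (12) 163118, 142290, 137206 and 115374. Markers of red cells (4 listed) were 1093, 737, 1566 and 2242 CPM. Their part in the members' values was not tested.

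**Figure D1:**
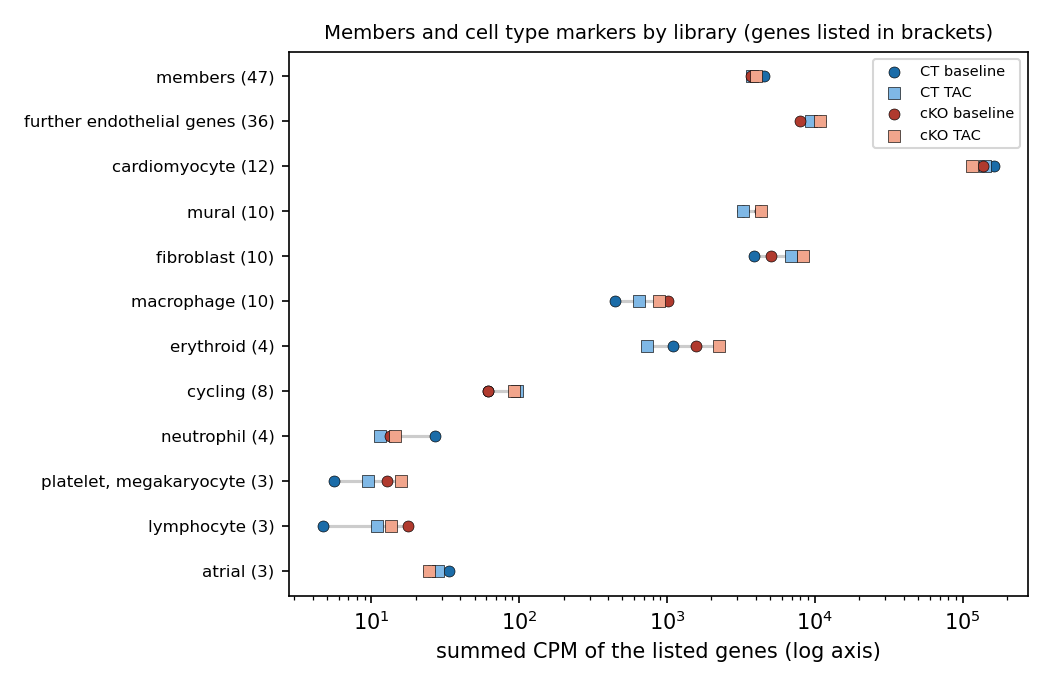
Summed CPM of the 47 members and of marker lists of other cell types (log axis), with 1 point for each of the 4 libraries. The members span 3703 to 4530 CPM, while fibroblast markers span 3870 to 8308 and macrophage markers 445 to 1017, each with CT baseline the lowest. In the mural list the 2 libraries of each genotype nearly coincide, though at baseline 5 of its 10 genes were higher and 5 lower in cKO.

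In the CT pair the members passed the limits about as often as all genes. At least 2-fold higher in the TAC heart were 4 of 47 members, namely the apelin receptor gene Aplnr, the adhesion molecule gene Vcam1, the endothelial lectin gene Clec14a and Hif1a, and 1, the oxygen sensor gene Egln1, was lower. Over all genes 10.7% passed the same limits (6.05% higher and 4.69% lower). The members' median log2 ratio was -0.07, against 0.01 over all genes. In the cKO pair 2 of 47 were higher, Clec14a and the arterial transcription factor gene Sox17, none was lower, and 6.52% of all genes passed (3.69% higher and 2.83% lower). The members' median was 0.20 there, against -0.00 over all genes.

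Between genotypes at baseline, 5 of 47 members passed, against 5.07% of all genes (3.26% higher and 1.81% lower). Aplnr and Vcam1 were higher in cKO, and Sox17, the Tie2 ligand gene Angpt1 and the Notch target gene Hey1 were lower. Under TAC 1 member passed, Plvap, the diaphragm protein of fenestrated capillaries, which was higher in cKO, and 5.02% of all genes did (2.93% higher and 2.09% lower). Across the 4 pairs 9 members passed at least once, 4 of them in 2 pairs, and 38 passed in none. The pairs share libraries (CT baseline, for one, is in the CT pair and the baseline genotype pair), so a high or low value of 1 heart enters both.

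**Figure D2:**
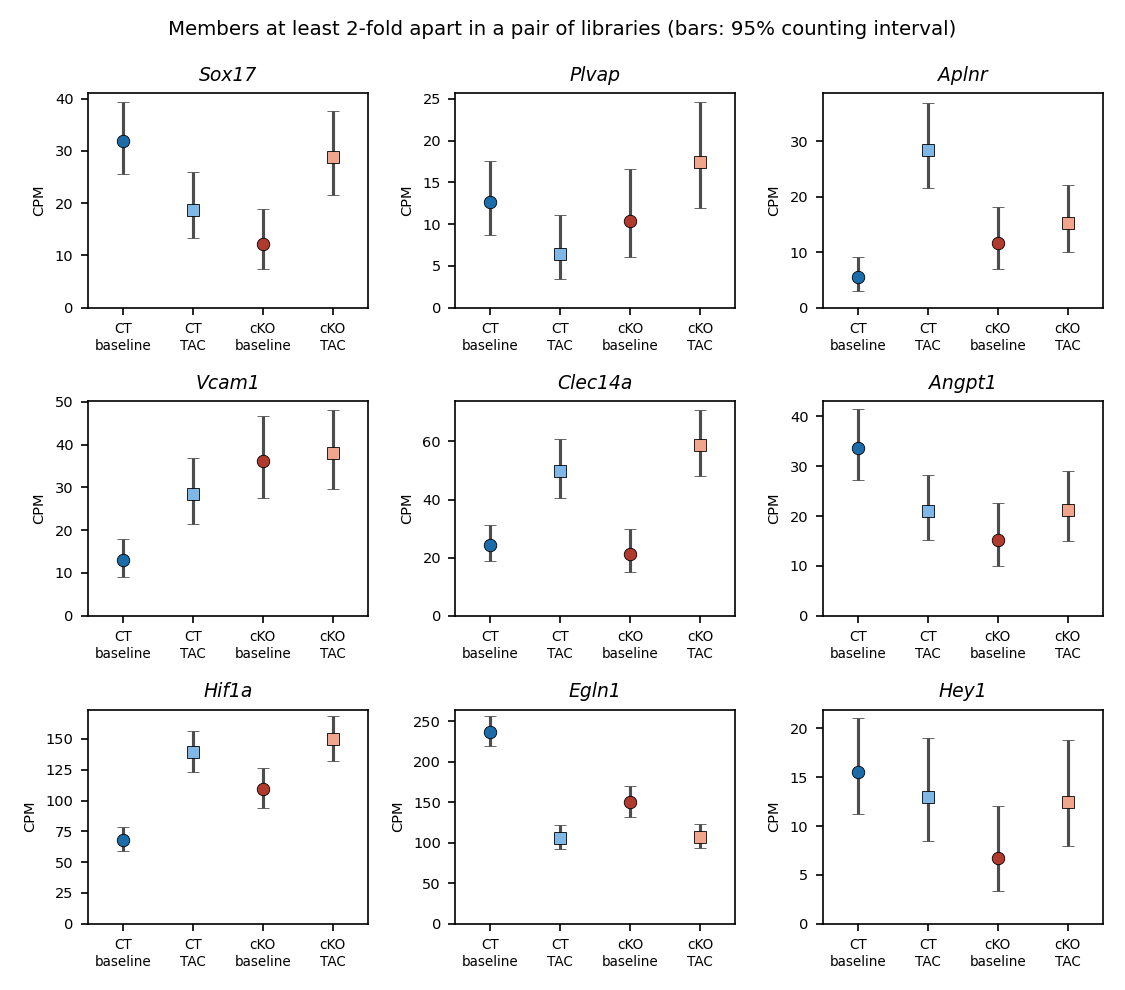
CPM (linear axes from 0) of the members at least 2-fold apart in some pair, 1 point per library with its 95% counting interval. Clec14a is high in both TAC libraries (49.9 and 58.7 CPM against 24.5 and 21.4), Aplnr is highest in CT TAC and Vcam1 is lowest in CT baseline.

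Over all 4 libraries Clec14a was the member called for TAC, 1 of 47 and higher under TAC, beside 1.82% of all genes (1.3% higher and 0.524% lower). Clec14a is a surface lectin that endothelial cells use in sprouting and in contact with their matrix, and its gene lies at chr12:58264720-58269290. Clec14a was 24.5 CPM (18.9 to 31.1), 49.9 (40.6 to 60.7), 21.4 (14.9 to 29.8) and 58.7 (48.2 to 70.9). Both TAC libraries lay above both baseline libraries, and none of the intervals crossed between them. Clec14a rose by 1.22 on the log2 scale (SE 0.25, limma, adjusted p = 0.0393, between 0.0104 and 0.333 over 7 alternatives, 5 of which called it). The log2 ratio was 1.01 in CT, at the 2-fold limit, and 1.44 in cKO. Per read of Pecam1 in the same library, Clec14a gave 0.138 (0.105 to 0.178), 0.311 (0.246 to 0.391), 0.126 (0.0859 to 0.179) and 0.305 (0.244 to 0.379) reads, so the difference was as large relative to a vessel marker, and such a ratio is free of scaling. This gene pair and the others set against each other were chosen after their values were seen.

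At an unadjusted p under 0.05, 12 of 47 members stood apart under TAC, 8 higher and 4 lower, beside 16.2% of all genes. For genotype no member was called by limma, beside 0.0242% of all genes, with 5 members at an unadjusted p under 0.05, beside 7.77% of all genes, and voom weights called none either. Those 5 were Vegfb (-0.57), Kdr (-0.50), Vcam1 (0.93), the platelet tether gene Vwf (0.59) and Selp (1.94), the last resting on 1, 0, 4 and 3 reads, with adjusted p between 0.496 and 0.576.

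Per kb of exon, with the exons of all transcripts of a gene joined, the receptors were led by Tie1. By mean CPM over the 4 libraries, Flt1 (326) and Kdr (300) lay above Tie1 (202), so this order depends on the length used. The mean level over the 4 libraries was 41.1 CPM per kb of exon for Tie1, a Tie receptor, 33.2 for Kdr (VEGF receptor 2, the main signalling receptor), 24.2 for Flt1 (VEGF receptor 1, largely a decoy), 21.1 for Tek (Tie2, the angiopoietin receptor), 4.11 for Aplnr and 2.55 for Flt4 (VEGF receptor 3, of lymphatic and sprouting cells). Aplnr, which binds apelin and guides vein and tip cells, lies at chr2:85136225-85139923. It was 5.56 CPM (3.11 to 9.17), 28.5 (21.5 to 36.9), 11.6 (7.0 to 18.1) and 15.2 (10.1 to 22.0). CT TAC was the highest and CT baseline the lowest, with 57 and 15 reads. The log2 ratio under TAC was 2.26 in CT (interval of the ratio 2.86 to 9.73) and 0.38 in cKO (0.706 to 2.48). Its baseline genotype ratio of 1.00 sat just inside the 2-fold limit, and Aplnr missed the adjusted threshold for TAC in limma (1.32, SE 0.44, adjusted p = 0.177).

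Kdr was 380 CPM (357 to 404), 323 (299 to 349), 249 (225 to 274) and 247 (225 to 271). Both CT libraries lay above both cKO libraries, by log2 ratios of -0.61 at baseline and -0.39 under TAC for cKO against CT, neither past 2-fold, and the limma effect of genotype was -0.50 (SE 0.17, adjusted p = 0.550). Per read of Pecam1, Kdr gave 2.13 (1.91 to 2.38), 2.02 (1.76 to 2.31), 1.46 (1.25 to 1.71) and 1.29 (1.12 to 1.48) reads. Flt1 was 456 CPM (431 to 482), 273 (250 to 296), 315 (288 to 343) and 262 (239 to 286), with CT baseline the highest by a clear margin. The ratio of Flt1 to Kdr reads was 1.20 (1.10 to 1.31) in CT baseline and 0.843 (0.751 to 0.946) in CT TAC, and 1.27 (1.11 to 1.44) and 1.06 (0.928 to 1.20) in the cKO hearts, lower under TAC in each genotype, with overlapping intervals in cKO. The other receptors varied little: Tie1 was 190, 206, 180 and 233 CPM, Tek 104, 95.2, 95 and 104, and Flt4 21.5, 24.5, 18.4 and 19.6.

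Among the ligands Vegfb, a VEGF linked to fatty acid uptake by the heart's endothelium and abundant in cardiomyocytes, was the highest per length at 212 CPM per kb, followed by Vegfa, the main driver of vessel growth, at 16.4 and Angpt1 at 4.38. Vegfc, the lymphatic VEGF, was at 1.33, Angpt2, the antagonist of Tie2 made by activated endothelium, at 0.752 and placental growth factor (Pgf) at 0.642. Vegfb was 481 CPM (455 to 508), 334 (310 to 361), 316 (289 to 344) and 231 (210 to 254). CT baseline was the highest and cKO TAC the lowest. The log2 ratio under TAC was -0.52 in CT and -0.45 in cKO, and cKO stood against CT at -0.60 at baseline and at -0.53 under TAC. The counting interval excluded 1 in all 4 pairs and none reached 2-fold, and limma gave -0.49 for TAC (SE 0.17, adjusted p = 0.192) and -0.57 for genotype (SE 0.17, adjusted p = 0.496). The order of the libraries for Vegfb was that of the summed cardiomyocyte markers, and what part those cells had was not tested.

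Vegfa was 74.2 CPM (64.2 to 85.2), 78.9 (67.0 to 92.2), 57.8 (46.5 to 70.4) and 70.8 (59.1 to 83.9), with intervals that all overlapped. The reads of Vegfb per read of Vegfa were 6.47 (5.58 to 7.56) and 4.24 (3.56 to 5.08) in the CT hearts and 5.47 (4.40 to 6.91) and 3.27 (2.68 to 4.01) in the cKO hearts, lower under TAC in each. Angpt1, made by mural cells and fibroblasts to keep vessels quiet (chr15:42424723-42676977), was 33.7 CPM (27.2 to 41.4), 21 (15.1 to 28.3), 15.3 (9.90 to 22.6) and 21.2 (15.1 to 29.0). CT baseline was the highest library, with an interval that overlapped those of both TAC hearts, and the other 3 overlapped. Angpt1 shares 737 bases with an antisense gene. The cKO to CT log2 ratio of Angpt1 was -1.12 at baseline (interval of the ratio 0.279 to 0.712) and 0.02 under TAC. Vegfc (3, 8, 5 and 9 reads), Pgf (8.5, 1, 4 and 2.5) and Angpt2 (7, 9, 3 and 4) passed in no pair, and their intervals were wide (0.0034 to 1.08 for the ratio of Pgf in the CT pair), so at this depth smaller differences were not detectable.

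Of the roles, the 4 hypoxia sensing genes had the largest median size of log2 ratio in the CT pair, 0.99. Hif1a encodes HIF-1alpha (chr12:73901375-73947530) and was 68.1 CPM (58.7 to 78.8), 139 (123 to 157), 109 (94.0 to 127) and 150 (132 to 168). Hif1a has parts of reads and shares 478 bases with other genes, Gm49321 on its own strand and Gm15283 antisense. Epas1 encodes HIF-2alpha, the form typical of endothelium, and was 837 CPM (803 to 872), 434 (406 to 464), 544 (509 to 581) and 468 (437 to 501). CT baseline was the lowest library for Hif1a and the highest for Epas1. Egln1 encodes the prolyl hydroxylase PHD2 (chr8:124908587-124949324) and was 237 CPM (219 to 256), 106 (92.5 to 122), 150 (132 to 170) and 108 (93.2 to 124), again with CT baseline the highest. Egln3, the hydroxylase PHD3, was 18.5, 23.5, 26.9 and 32.6 CPM with overlapping intervals between neighbours.

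The reads of Epas1 per read of Hif1a were 12.3 (10.6 to 14.3), 3.12 (2.72 to 3.58), 4.97 (4.23 to 5.87) and 3.13 (2.73 to 3.60). Egln1 reads per read of Egln3 were 12.8 (9.59 to 17.4), 4.53 (3.29 to 6.36), 5.59 (4.04 to 7.89) and 3.30 (2.46 to 4.48). These ratios compare libraries, not the levels of the genes. Both were highest in CT baseline, lower under TAC in each genotype, and lower in the cKO heart than in the CT heart at baseline, though for Egln1 to Egln3 the intervals of the cKO hearts overlapped. Between the TAC hearts the Epas1 to Hif1a ratio was the same within its intervals. Over all libraries limma gave -0.82 for Egln1 under TAC (SE 0.21, adjusted p = 0.0846, between 0.0277 with voom weights and 0.404 over the alternatives), 0.74 for Hif1a (SE 0.21, adjusted p = 0.115) and -0.58 for Epas1 (SE 0.20, adjusted p = 0.184), none of them called. From the CT libraries alone the values were -1.15 for Egln1, 1.03 for Hif1a and -0.95 for Epas1, and from the cKO libraries alone -0.48, 0.45 and -0.22, each with no test.

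**Figure D3:**
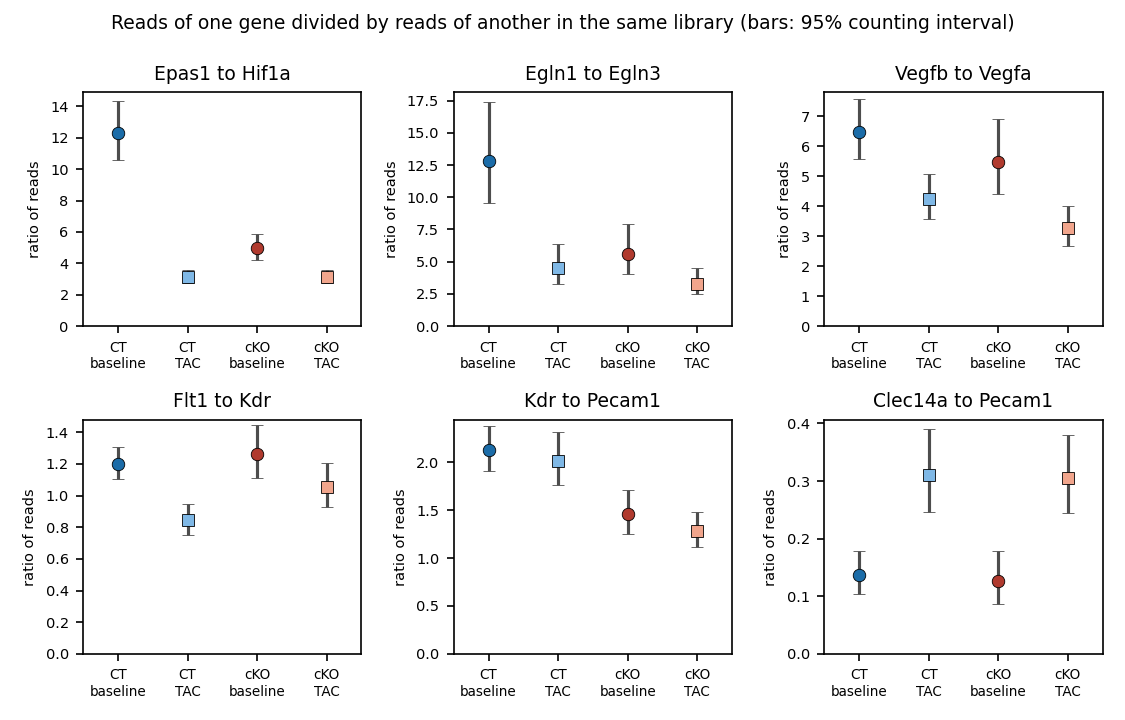
Ratio of the reads of 1 gene to those of another within each library (linear axes from 0), with 95% counting intervals. The Epas1 to Hif1a ratio is 12.3 in CT baseline and 3.12 in CT TAC, with 4.97 and 3.13 in the cKO hearts, and the Clec14a to Pecam1 ratio is 0.311 and 0.305 under TAC against 0.138 and 0.126 at baseline.

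Of 23 further hypoxia genes and HIF targets, Ldha, which makes lactate, was called for TAC, beside 1.82% of all genes. It rose by 0.78 (SE 0.17, limma, adjusted p = 0.0461, between 0.0134 and 0.387 over 7 alternatives, 3 of which called it). No other gene of the 23 was called. In the CT pair 1 of the 23 was at least 2-fold higher, in the cKO pair 2 were higher, and none was lower in either. Over all genes 6.05% were higher in the CT pair and 3.69% in the cKO pair. The median log2 ratio of the 23 genes was -0.07 in the CT pair and 0.21 in the cKO pair.

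Among the 6 endothelial transcription factors Sox17 was the one member that passed. Sox17, which specifies arterial endothelium (chr1:4490931-4497354), was 32.0 CPM (25.5 to 39.4), 18.8 (13.4 to 26.0), 12.2 (7.47 to 18.9) and 28.8 (21.6 to 37.7), with 86.2, 37.6, 20 and 53 reads. CT baseline and cKO TAC were high and cKO baseline low, and the interval of CT TAC overlapped its neighbours on both sides. Its log2 ratio under TAC was -0.75 in CT (interval of the ratio 0.395 to 0.881) and 1.20 in cKO (1.39 to 4.16), opposite in direction. Sox17 has parts of reads and shares 804 bases with an antisense gene, and strand use in counting is not given in the sources used here. Sox18, its close relative, was 62.6, 32.4, 45.3 and 48.9 CPM with log2 ratios of -0.94 and 0.11 under TAC. Sox7, Erg, Fli1 and Ets1 passed in no pair. All 6 had a cKO to CT log2 ratio above 0 under TAC, from 0.10 to 0.61, none past 2-fold. The interval of that ratio excluded 1 for Sox18 alone. Above 0 in the same pair were 35 of all 47 members, beside 6264 of 12408 genes.

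No Notch member passed 2-fold under TAC. All 6 (the receptors Notch1 and Notch4, the ligands Dll4 and Jag1, the target genes Hey1 and Heyl) had log2 ratios below 0 in the CT pair, from -0.77 to -0.02. In the cKO pair 5 of the 6 were above 0, up to 0.85. The interval of the ratio excluded 1 for Notch1 and Notch4 alone in the CT pair, and for Jag1 alone in the cKO pair. Of all 47 members, 29 were below 0 in the CT pair and 34 above 0 in the cKO pair. Over all 12408 genes these numbers were 6090 and 6176. Hey1, a repressor that Notch switches on in arteries, was 15.6 CPM (11.2 to 21), 13.0 (8.48 to 19.0), 6.73 (3.36 to 12.0) and 12.5 (7.93 to 18.8). The lowest library for Hey1 was cKO baseline, with 11 reads and a cKO to CT log2 ratio of -1.15. Notch4, an endothelial receptor, was 102, 68.4, 67.3 and 71.8 CPM, with CT baseline the highest. Of 17 further Notch genes none was called by limma for TAC, 8 were above 0 and 9 below in the CT pair, and 7 were above and 10 below in the cKO pair, with medians of -0.01 and -0.15. In the pairs, Hey2 was 2.09 lower on the log2 scale in CT TAC than in CT baseline, on 10 and 1 reads, Hes1 was 1.69 and Lfng 1.37 higher in cKO TAC than in CT TAC, and Dll1 was 1.45 higher in cKO TAC than in cKO baseline, on 7 and 23 reads.

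Of the 14 surface, junction and caveolar genes, Clec14a and Plvap alone passed in a pair, and the medians of the log2 ratios were -0.04 in the CT pair, 0.32 in the cKO pair, -0.09 between genotypes at baseline and 0.25 under TAC. Plvap (chr8:71497765-71511752) was 12.6 CPM (8.73 to 17.6), 6.49 (3.46 to 11.1), 10.4 (6.06 to 16.6) and 17.4 (11.9 to 24.6), on 34, 13, 17 and 32 reads. CT TAC was the lowest and cKO TAC the highest, a log2 ratio of 1.36 (interval of the ratio 1.37 to 5.57). Cav2, a caveolar coat protein, was just outside the limit in the same pair at 0.97, with 32.5 and 59.5 reads. Nos3, the endothelial nitric oxide synthase, was 64.1, 85.4, 51.4 and 93.5 CPM, higher under TAC in both genotypes by 0.41 and 0.86 without passing 2-fold (limma 0.63, SE 0.22, adjusted p = 0.188). Cav1 was 140, 180, 143 and 220 CPM with the same order of baseline and TAC hearts. Nos3 shares 1334 bases with antisense genes, among them Atg9b. Ly6c1, a marker of capillary endothelium with a near-identical neighbouring copy, was 70.3, 42.1, 55.3 and 75.7 CPM, and its reads may be split between the copies. Esam, Podxl, Ptprb, Mmrn2, Ly6a and Egfl7 passed in no pair.

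Of the 5 adhesion genes Vcam1 alone passed. Vcam1, which holds leukocytes to inflamed endothelium (chr3:116109949-116129688), was 13.0 CPM (9.04 to 18.0), 28.5 (21.5 to 36.9), 36.1 (27.5 to 46.6) and 38.1 (29.7 to 48.1). CT baseline was the low library and the other 3 overlapped. Its log2 ratio was 1.10 under TAC in CT, 0.08 in cKO and 1.44 between genotypes at baseline. Macrophage markers, which were lowest in CT baseline as well (445 CPM against 643 to 1017), and other cells that can bear Vcam1 were not tested for their part. Vwf, made by endothelial cells and platelets, was 77.8, 107, 113 and 166 CPM, lowest in CT baseline and highest in cKO TAC. Its log2 ratios lay between 0.45 and 0.64 in all 4 pairs. Icam2 was 43.4, 32.9, 36.1 and 53.3 CPM, and Icam1 passed in no pair.

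**Figure D4:**
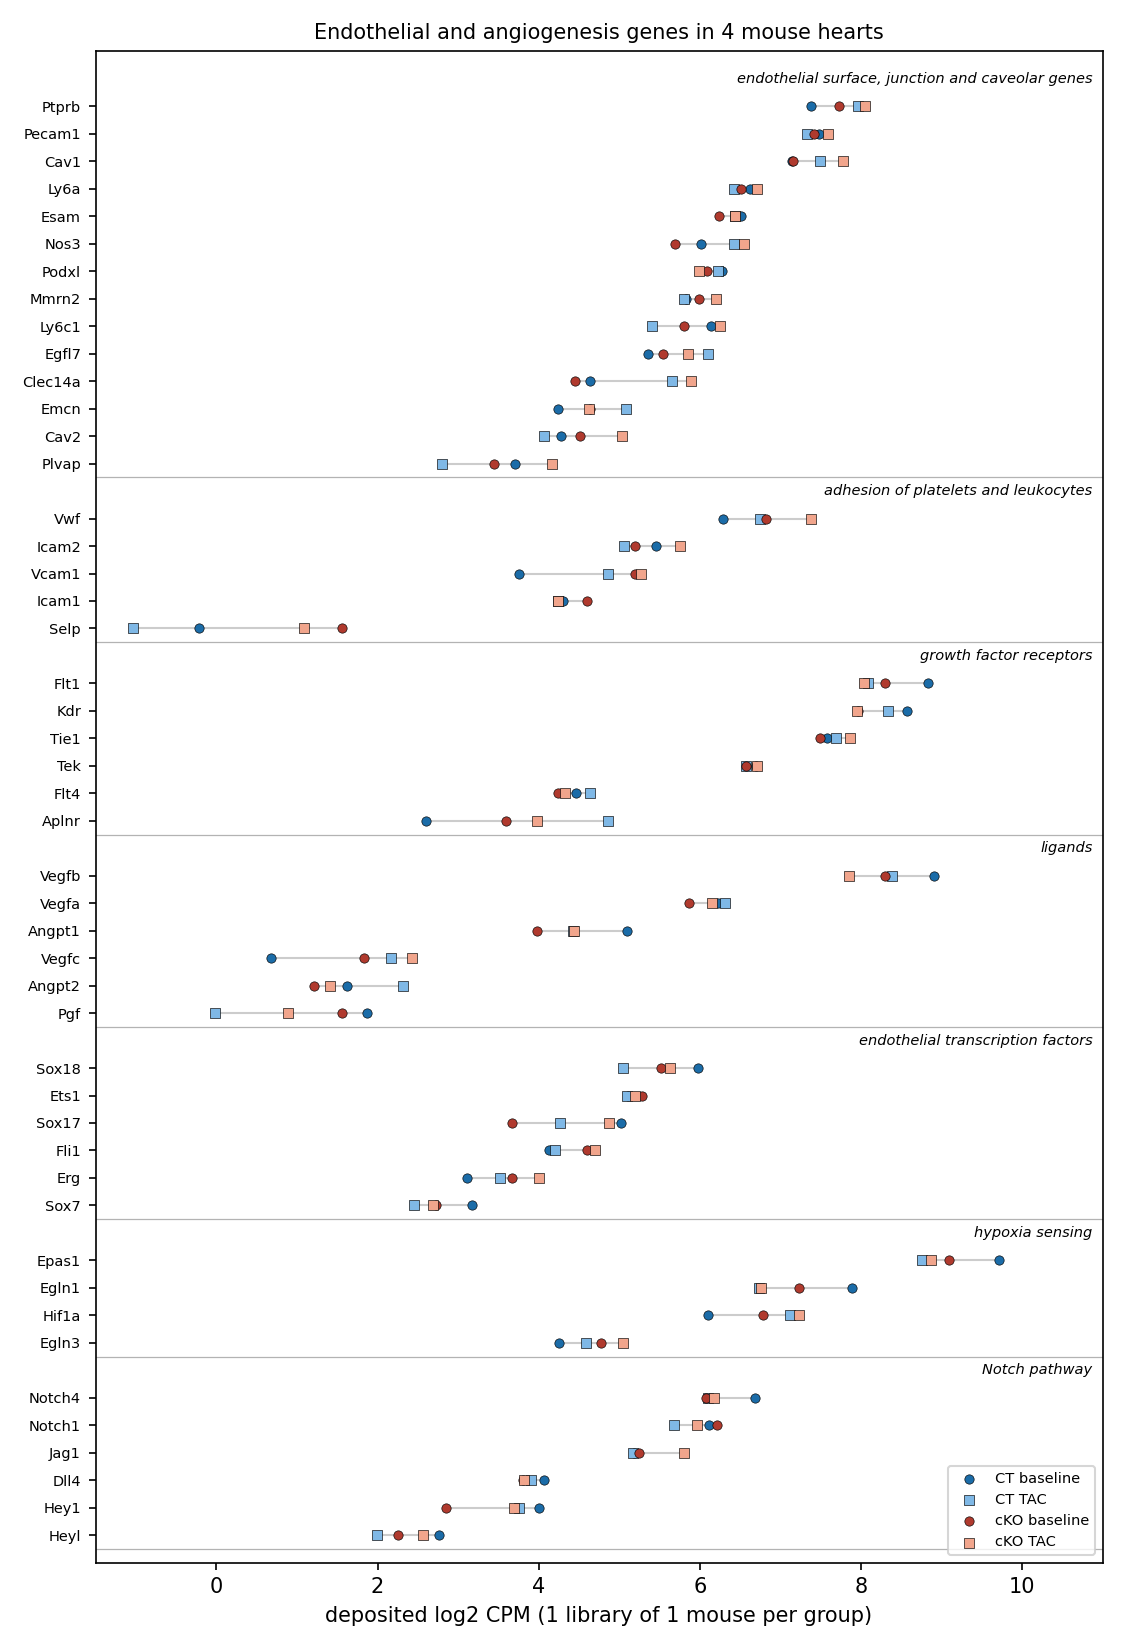
Deposited log2 CPM of the 47 listed members in each of the 4 libraries, grouped by role. For most genes the 4 points lie close together, and Selp, Pgf, Vegfc and Angpt2 rest on fewer than 10 reads in each library.

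The difference between genotypes in the response to TAC has no test, since 4 libraries leave no residual degree of freedom for it. The log2 ratio under TAC in cKO minus that in CT had a counting interval that excluded 0 for 15 of 47 members (31.9%), beside 18% of all genes, and the members' reads are more numerous than those of the median gene, which narrows their intervals. It was positive for 11 and negative for 4, with a median of 0.26 against -0.01 for all genes. The positive members were Pecam1 (0.32), Flt1 (0.47), Sox17 (1.96, interval 1.04 to 2.87), Sox18 (1.05), Plvap (1.62), Ly6c1 (1.18), Icam2 (0.95), Angpt1 (1.13), Epas1 (0.73), Egln1 (0.67) and Notch4 (0.67). The negative ones were Aplnr (-1.88, interval -3.04 to -0.72), Vcam1 (-1.03), Emcn (-0.86) and Hif1a (-0.58). CT baseline was the highest or the lowest library for all 15 except Pecam1, Plvap, Ly6c1 and Icam2. The 2 responses had opposite signs for 18 of 47 members, beside 37.7% of all genes, while 17 were higher in both genotypes and 12 lower in both. The highest library was cKO TAC for 21 members, CT baseline for 16, CT TAC for 6 and cKO baseline for 4, where each is the highest for between 23.3% and 26.0% of all genes.

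**Figure D5:**
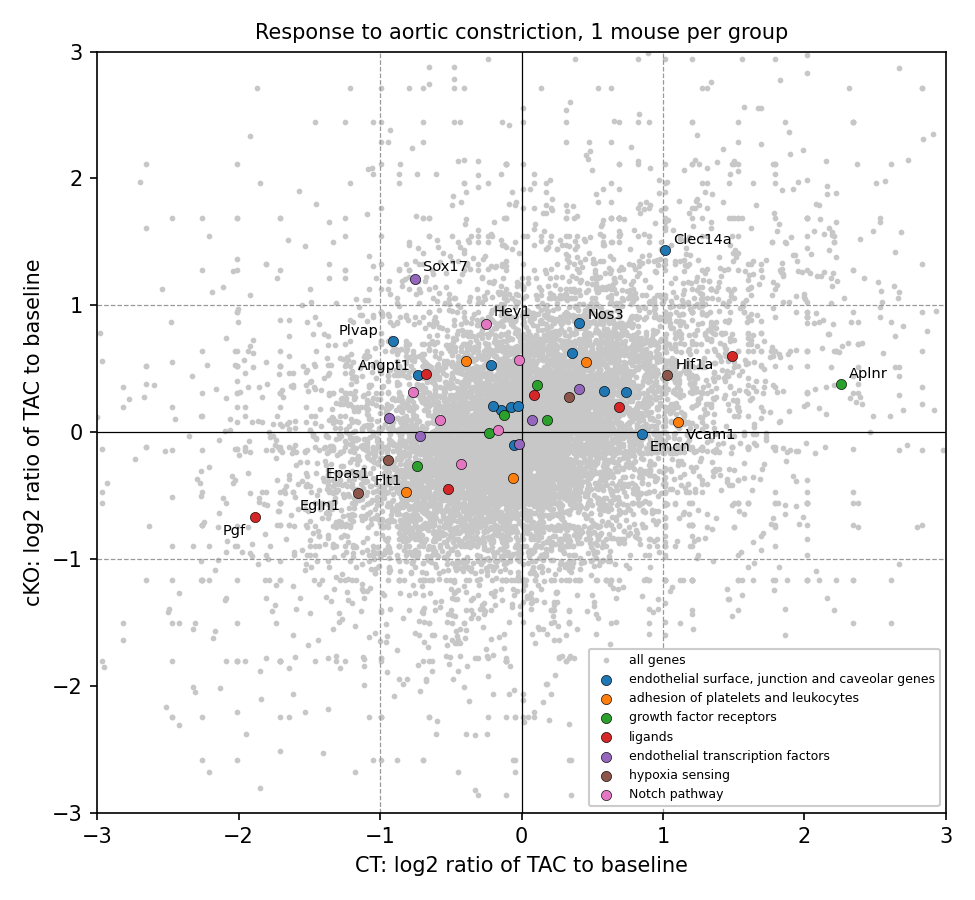
Log2 ratio of TAC to baseline in CT (x axis) and in cKO (y axis), with the members coloured by role over all genes in grey, dashed lines at 2-fold and 91 genes beyond 3 not drawn. Clec14a sits past 2-fold on both axes (1.01 and 1.44), Sox17 at -0.75 and 1.20, and Aplnr at 2.26 and 0.38.

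Other endothelial genes, a list of 36 that are not members, gave 3 calls for TAC in limma, all higher, beside 1.3% of all genes higher. Tm4sf1, a surface protein of endothelial sprouts, was at 1.48 (SE 0.23, adjusted p = 0.0101). Fabp4, a fatty acid carrier of capillaries, was at 1.13 (SE 0.21, adjusted p = 0.0260). Cd34, a sialomucin of capillaries and some fibroblasts, was at 1.10 (SE 0.21, adjusted p = 0.0309). Each was called in 5 of 7 alternatives, with limma adjusted p up to 0.324, 0.377 and 0.350 in that order. Fabp4 was 1289, 2091, 774 and 2279 CPM, Tm4sf1 35.6, 123, 44.0 and 101, and Cd34 62.8, 163, 78.9 and 140, each with both TAC hearts above both baseline hearts. In the pairs, 3 of the 36 were higher and 3 lower in CT TAC, beside 6.05% and 4.69% of all genes. In cKO TAC 5 were higher and 0 lower, beside 3.69% and 2.83%. Between genotypes 2 were lower in cKO at baseline, beside 1.81%, and 2 higher in cKO under TAC, beside 2.93%. The medians were -0.18, 0.53, -0.38 and 0.25. The summed signal of the list was 10847, 9465, 7944 and 10865 CPM, lowest in cKO baseline. Fibroblast markers had 6 of 10 genes called higher for TAC, and their part in Cd34 was not tested.

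Of 20 listed genes of VEGF and other receptor signalling 1 was called for TAC, Svep1, a matrix protein that promotes Tie1 signalling. It rose by 1.53 (SE 0.30, limma, adjusted p = 0.0344, between 0.00322 and 0.361 over 7 alternatives, 5 of which called it). It was 16.7, 78.4, 48.9 and 88.6 CPM, lowest in CT baseline. In the CT pair 3 of the 20 were higher and 2 lower, beside 6.05% and 4.69% of all genes. In the cKO pair none passed, beside 6.52% of all genes. For genes of inflamed endothelium (13 listed) none was called. In the CT pair 1 of the 13 was higher and 0 lower, beside 6.05% and 4.69% of all genes. In the cKO pair 0 were higher and 1 lower, beside 3.69% and 2.83%. Between genotypes at baseline 2 were higher in cKO and 0 lower, beside 3.26% and 1.81%. Under TAC 0 were higher in cKO and 2 lower, Nfkbia and Tnfaip3, beside 2.93% and 2.09%. In the pairs the chemokine gene Ccl2 was 3.35 higher in cKO than in CT at baseline, on 4 and 32 reads, with 6 reads in the cKO TAC heart, and E-selectin (Sele) was 1.77 higher in CT TAC than in CT baseline, on 5 and 15 reads.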

How the data were processed

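RNA from 4 mouse hearts was sequenced, 1 library per group. The authors deposited log2 CPM for 12408 genes, and per the submitters' processing notes CASAVA, HISAT2, edgeR and mm10 were used. No source used here names the counter, annotation, strand setting or gene filter. From the values, 1 read scaled by library size had been added before the logarithm, and reads were recovered from the grid: 88.6% to 89.0% of genes per library were whole within 0.01 read, and 2449 genes (19.7%), 14 of them members, had parts of reads. Intervals of the ratio are Clopper-Pearson 95% on rounded reads, and those of a difference of ratios are Wald intervals with 0.5 reads added. A count test was planned if files held counts. Since they hold log2 values, limma 3.58.1 in R 4.3.3 was fitted with its trend of variance on mean, leaving 1 residual degree of freedom and 10.1 prior degrees of freedom. It was tested on simulated data. CPM per kb divides by the union of the GENCODE M21 exons of a gene over all its transcripts, which can exceed the length of any 1 transcript. Groups follow the labels. Alternatives covered scaling, added reads, filters, the fold limit, voom weights and left-out libraries. Values in every library are given for members past 2-fold or called, the VEGF and Tie receptors and ligands, and Pecam1 and Emcn. Of other lists at most 4 genes are named, those called or else genes past 2-fold in a pair. Members and lists were chosen with earlier results of these data known.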

Additional observations from a re-analysis of the deposited data

Results flagged for a closer look

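The differences in this part were not tested, since each group has 1 mouse, and each value rests on single libraries. Sox17 moved in opposite directions with TAC, by -0.75 in CT and by 1.20 in cKO (log2), and its cKO to CT ratio was -1.35 at baseline and 0.61 under TAC. The cKO to CT ratio of Plvap was -0.27 at baseline and 1.36 under TAC, on 13 to 34 reads. That of Aplnr was 1.00 at baseline and -0.88 under TAC, on 15 to 57 reads, and that of Angpt1 was -1.12 and 0.016. Each pair of values shares the 4 libraries, so the genotype and TAC directions are not separate evidence. Markers of other cell types also differed between the same hearts, and their part was not tested.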

How the results depend on the processing

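No paired analysis was possible because each group has 1 library and the labels give the groups no replicate numbers to pair by. Recomputed were the member ratios past 2-fold and the member limma effects called or at an unadjusted p under 0.05. Direction held for each. These values were chosen for their size, and scaling moved the median ratio by 0.094 at most, so their direction could hardly turn. The direction of smaller member ratios was not examined. With a fold limit of 1.5 in place of 2, members past it numbered 14 in the CT TAC pair (21.2% of all genes), 4 in the cKO TAC pair (14%), 11 between genotypes at baseline (10.8%) and 8 under TAC (12.1%). Restricted to genes with whole reads, the cKO TAC pair had 1 member. Scaling to total counts gave 2 members (Plvap and Cav2) between genotypes under TAC, and moved the median ratio of all genes between genotypes by 0.091 at baseline and 0.094 under TAC. With 1 CPM added, Clec14a in the CT pair and Aplnr at baseline missed 2-fold, as did Aplnr at baseline with median-of-ratios scaling. Members called for TAC numbered 0 without the trend, 2 with voom weights (Clec14a and Egln1) and 0 without a genotype term. Over all genes, calls for TAC numbered 226, and 468 with voom weights, 328 with a mean of at least 5 CPM, 20 without a genotype term and 0 without the trend. For genotype they numbered 3, and 36 with voom weights, 9 with that filter, 5 with median-of-ratios scaling and 0 in the other two. The cause of these shifts was not tested. Leaving out 1 library leaves 1 pair per factor and a value with no test: the effect of TAC was then 1.01 to 1.44 for Clec14a, 0.38 to 2.26 for Aplnr, -1.15 to -0.48 for Egln1, 0.45 to 1.03 for Hif1a and -0.95 to -0.22 for Epas1, and that of genotype on Vcam1 was 0.41 to 1.44. Of such values 28 moved beyond 1 SE and 40 did not, with Flt1 and Nos3 under TAC among those that moved. These values are not separate results. Leaving out either library of a pair gives the same value, and the main effect lies midway between the values of the 2 pairs. Each gene effect thus has the same label for all 4 left-out libraries. Depth limits members with few reads, of which 5 had under 10 in some library.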

Other observations

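Among 15 listed inhibitors of vessel growth 2 were called higher for TAC, beside 1.3% of all genes. Serpinf1, which encodes the anti-angiogenic pigment epithelium-derived factor, was 86.4, 751, 166 and 716 CPM (CT at baseline and with TAC, then cKO likewise), and rose by 2.61 on the log2 scale (SE 0.23, limma, adjusted p = 0.000387). Timp2, an inhibitor of matrix proteases, was 35.6, 78.9, 62.4 and 120 CPM and rose by 1.04 (SE 0.21, limma, adjusted p = 0.0382). Over 7 alternatives the limma adjusted p reached 0.297 for Serpinf1, called in 6, and 0.344 for Timp2, called in 5. Both genes are also made by fibroblasts, whose summed markers were 3870, 6872, 5091 and 8308 CPM in the same libraries, and what part those cells had was not tested. Summed over the 15 genes the signal was 464, 1091, 484 and 1192 CPM. Serpinf1 alone made up most of that sum in both TAC hearts, so the sum does not describe the other genes. The median log2 ratio of the 15 was 0.41 in the CT pair, with 10 above 0 and 5 below. In the cKO pair it was 0.43, with 9 above 0 and 6 below.

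Of 16 listed arterial, venous, endocardial and lymphatic genes none was called by limma for TAC, and in the cKO pair 6 were at least 2-fold higher and none lower, beside 3.69% of all genes higher there. The largest in that pair were the arterial connexin gene Gja4 (1.70, on 3 and 13 reads), Stmn2 (1.64, on 6 and 23) and Cytl1 (1.44, on 9 and 29). In the CT pair 1 was higher, Bmx, and 1 lower, beside 6.05% and 4.69% of all genes. Between genotypes at baseline 1 was higher in cKO, Bmx, and 1 lower, Gja4, beside 3.26% and 1.81%. Under TAC 3 were higher in cKO and 0 lower, beside 2.93% and 2.09%. Of 13 guidance and ephrin genes the artery marker Efnb2 was 1.18 higher in CT TAC than in CT baseline and 1.24 lower on the log2 scale in cKO TAC than in CT TAC, the semaphorin gene Sema3g was 1.37 lower in CT TAC than in CT baseline, and Slit3 was 1.40 higher in cKO TAC than in CT TAC, each from 1 library per group.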
